A study of Mus musculus with 4 samples.

Results

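The probes described here carry a TT as the central bases of a block of 4 varied bases, with a purine on either side of the TT. They were found by name: in 21 libraries the block runs through 256 endings, and 8 of these hold such a TT. A block with A first (ATTA or ATTG) or G first (GTTA or GTTG) has the TT on the listed strand. With the TT on the opposite strand, the ending TAAT reads ATTA there, CAAT reads ATTG, TAAC reads GTTA and CAAC reads GTTG. This gave 168 probe names with 168 distinct sequences, of 5376 names in the libraries and 6126 names in the series. Of the 168 sequences, 40 were also printed under a name of a second library and ending. The library names refer to sites of MITF, TBP and p53, which are transcription factors, and to altered forms of these sites, in probes of 59 or 60 bases. The meaning of the parts Ex, E and NP in the library names is not known from the labels.

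Each probe was printed in 10 spots on each of 4 arrays. An anti-cyclobutane pyrimidine dimer (CPD) antibody, diluted 1 in 400, was applied to a UV-irradiated array and to an unexposed array. An anti-6-4 photoproduct (6-4PP) antibody, diluted 1 in 80, was applied to another such pair. Both antibodies are mouse antibodies, and the probes are synthetic DNA, not mouse genes. Each group is thus 1 array, and differences between irradiated and unexposed arrays have no replicate check. The condition was taken from the array condition field, which the titles of both 6-4PP arrays contradict. The labels give neither the UV dose nor how the strands were paired. Reading a TT on the opposite strand takes the probes to be double-stranded.

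Ultraviolet light joins neighbouring pyrimidines of a DNA strand. In a CPD the bases are linked through a cyclobutane ring, and in a 6-4PP through a bond between the rings that distorts the helix more strongly. CPDs form most readily at TT, and 6-4PPs at TT and TC. The purines beside the TT keep it from being part of a longer pyrimidine run. Such a block sets a TT between defined neighbours on its strand, and each antibody is directed at its own photoproduct.

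The first set of sequences shows a TT that is the only dipyrimidine of its probe, on the listed strand of the MITF_Ex_ebox_59 backbone. Sequences are written 5′ to 3′ along the listed strand. Capitals mark the central bases of the block, which are TT, or AA where the TT lies on the opposite strand.
MITF_Ex_ebox_59_ATTA: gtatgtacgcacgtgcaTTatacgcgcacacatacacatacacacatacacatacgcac
MITF_Ex_ebox_59_ATTG: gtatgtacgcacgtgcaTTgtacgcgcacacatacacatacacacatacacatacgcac
MITF_Ex_ebox_59_GTTA: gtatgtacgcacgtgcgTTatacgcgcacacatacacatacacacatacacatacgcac
MITF_Ex_ebox_59_GTTG: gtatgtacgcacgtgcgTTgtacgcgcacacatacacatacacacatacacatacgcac

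The second set has the same blocks on the opposite strand of the TBP_59 backbone, again with no other dipyrimidine on either strand.
TBP_59_TAAT: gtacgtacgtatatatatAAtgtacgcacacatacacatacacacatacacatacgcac
TBP_59_CAAT: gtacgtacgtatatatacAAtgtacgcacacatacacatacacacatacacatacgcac
TBP_59_TAAC: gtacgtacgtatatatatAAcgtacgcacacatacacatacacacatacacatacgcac
TBP_59_CAAC: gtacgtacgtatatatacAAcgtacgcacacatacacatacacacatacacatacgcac

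The third set holds extremes of the data. In all of its probes but MITF_sebox_59_TAAC the block borders on a further dipyrimidine. In MITF_Ex_ebox_60_ATTG the inserted base after the block makes a TC on the strand opposite the TT. MITF_ebox_59_GTTG has a further dipyrimidine on both sides of the block, a CC and a TC. TBP_59_ATTA was the brightest of the 168 probes on the irradiated CPD array, and NP_MITF_ebox_60_CAAC was the dimmest there. MITF_sebox_59_TAAC, whose TT is its only dipyrimidine, was the dimmest on the irradiated 6-4PP array.
MITF_Ex_ebox_60_ATTG: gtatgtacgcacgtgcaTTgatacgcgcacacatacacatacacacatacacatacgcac
MITF_ebox_59_GTTG: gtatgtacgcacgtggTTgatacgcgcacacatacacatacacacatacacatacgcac
TBP_59_ATTA: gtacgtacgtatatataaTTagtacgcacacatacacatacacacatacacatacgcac
NP_MITF_ebox_60_CAAC: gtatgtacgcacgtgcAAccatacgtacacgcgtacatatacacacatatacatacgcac
MITF_sebox_59_TAAC: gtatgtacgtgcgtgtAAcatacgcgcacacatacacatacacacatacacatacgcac

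Purines and pyrimidines alternate along each backbone, so a dipyrimidine could lie only inside the block or across its edges. A dipyrimidine across an edge is called an edge step here. For a central TT with purine flanks, edge steps always lay on the strand opposite the TT. Of the 168 probes, 32 had no edge step, 104 had 1 and 32 had 2. All 104 probes of 60 bases were among those with 1 edge step, and the 59-base probes were split between none and 2. These counts matter for each comparison below, since a flank base can be part of an edge step, and a move of the TT to the other strand can change the number of edge steps.

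The TT probes were bright with both antibodies on the irradiated arrays. Values are fluorescence intensities on a linear scale that ends at 65535, as the median over the spots of a probe. Where only an antibody is named, its irradiated array is meant. Over the 168 probes the irradiated CPD array gave 2576.5 at the lowest, 6955.25 at the median and 17442 at the highest. The CPD non-UV array gave 26, 33 and 73. The 6-4PP UV array gave 4508, 16135.2 and 65535, and the unexposed 6-4PP array gave 35.5, 58 and 86. The ranges of irradiated and unexposed arrays did not overlap for either antibody. The UV minus non-UV difference had a median of 7.66 on the log2 scale (6.49 to 8.48) for CPD and of 8.17 (6.38 to 10.54) for 6-4PP. The medians over all 5376 library names were 7.11 and 8.17, and over the 208 names without a dipyrimidine 6.38 and 6.53. If the titles of the 6-4PP arrays were right, the sign of the 6-4PP difference would turn.

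The spots of a probe scattered with a median SD, in log2 units, of 0.22 on the unexposed CPD array, 0.38 on the irradiated CPD array, 0.15 on the unexposed 6-4PP array and 0.30 on the irradiated 6-4PP array. Flags removed 34 spots of these probes on the unexposed 6-4PP array and 7 on the irradiated 6-4PP array, and 0 on either CPD array. On the irradiated 6-4PP array 12 of the 168 medians lay at the ceiling, where values are lower bounds and have no order. At least 1 spot lay at the ceiling in 28 of the 168 probes, 147 spots together, and the spot tests use these capped values.

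Names without a dipyrimidine gave each array's background, taken at their 95th percentile. On the irradiated CPD array 153 of 168 TT probes were above it, against 56.1% of all library names. With the 6-4PP antibody 153 were above it, against 87.2% of all names. On the unexposed CPD array 108 were above it, with 36.1% of all names, and on the unexposed 6-4PP array 50, with 25.8%. The probes that stayed at background on the UV arrays mostly carried a G before the TT. With the CPD antibody 42 of 42 ATTA, 41 ATTG, 41 GTTA and 29 GTTG probes were above it. For 6-4PP the counts were 42, 42, 35 and 34.

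The base 5′ of the TT was associated with a clear difference with both antibodies: A gave more signal than G. The isolated TT shows this best. The probe MITF_Ex_ebox_59_ATTA gave 36.5 on the unexposed CPD array, 8849 on the irradiated CPD array, 77 on the unexposed 6-4PP array and 17560 on the irradiated 6-4PP array. The probe MITF_Ex_ebox_59_GTTA gave 29.5, 5719, 56.5 and 6674 in the same order. ATTA was 1.55 times as bright as GTTA on the irradiated CPD array (exact permutation test over spots, adjusted p = 0.00566) and 2.63 times on the irradiated 6-4PP array (adjusted p = 6.91e-05). The probe MITF_Ex_ebox_59_ATTG gave 29.5, 8567, 67 and 11756, and MITF_Ex_ebox_59_GTTG gave 29.5, 5195.5, 58 and 6372. The fold between them was 1.65 on the irradiated CPD array (exact test, adjusted p = 0.00717) and 1.84 on the irradiated 6-4PP array (adjusted p = 0.000732). On the unexposed arrays neither pair passed, with adjusted p from 0.112 to 0.838 in the exact test. Each p-value sets the 10 spots of a probe against those of its partner on the same array. The adjustment is Benjamini-Hochberg's over every pair of the kind in the 21 libraries, and repeat irradiations are not covered. Pairs of the kind differ in that base alone, with any other varied bases, so most hold no central TT.

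The opposite-strand set gave the same order. TBP_59_TAAT, which reads ATTA on its TT strand, gave 31.5 on the unexposed CPD array, 7294.5 on the irradiated CPD array, 55.5 on the unexposed 6-4PP array and 17500 on the irradiated 6-4PP array. TBP_59_TAAC, which reads GTTA, gave 33.5, 4153, 55 and 6462. The A probe was 1.76 times as bright on the irradiated CPD array (exact test, adjusted p = 0.000645) and 2.71 times on the irradiated 6-4PP array (adjusted p = 0.000254). TBP_59_CAAT, which reads ATTG, gave 31, 5887.5, 54.5 and 11404.5. TBP_59_CAAC, which reads GTTG, gave 28.5, 2892.5, 58.5 and 5861.5, the lowest of this set on both UV arrays.

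Over all backbones, 84 pairs differed in the 5′ base alone. For CPD A was higher in 83 pairs, with a median fold of 1.60 (0.98 to 4.13). Of these, 64 passed the test with A higher and 0 with G higher, against 39.3% called with A higher over all such pairs of the libraries. By 6-4PP signal A was higher in 83 pairs and both probes of the other pair lay at the ceiling. The median fold was 2.64 (1.00 to 6.32) and 82 pairs passed with A higher, against 52.2% in the libraries. In 40 pairs the 5′ base was part of no other dipyrimidine. There the median fold was 1.45 on the irradiated CPD array, with 39 of 40 higher and 27 passing. In the 6-4PP values it was 1.97 (1.32 to 3.36), with 40 of 40 higher and 39 passing. In the other 44 pairs the base was also in an edge step, so that A or G changed the type of that step too. The median folds there were 1.75 on the irradiated CPD array and 3.29 on the irradiated 6-4PP array. On the unexposed arrays the median folds over the 84 pairs were 1.17 for CPD and 1.05 for 6-4PP. On the unexposed CPD array 23 pairs passed with A higher, against 9.75% in the libraries. As a ratio of irradiated to unexposed intensity, A exceeded G in 74 of 84 pairs with the CPD antibody, by a median of 0.38 on the log2 scale, and in 83 with the 6-4PP antibody, by 1.24.

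The smallest 5′ difference on the irradiated CPD array was p53_E60_ATTG at 8690.5 against p53_E60_GTTG at 8825.5 (exact test, adjusted p = 0.870). The largest was TBP_E59_CAAT, reading ATTG, at 16092.5 against TBP_E59_CAAC, reading GTTG, at 3896.5, a fold of 4.13 (exact test, adjusted p = 0.000185). On the irradiated 6-4PP array the largest was MITF_sebox_60_TAAT, reading ATTA, at the ceiling of 65535 against MITF_sebox_60_TAAC, reading GTTA, at 10365. The ceiling makes that fold at least 6.32 (exact test, adjusted p = 6.91e-05). In both of these large pairs the 5′ base was also part of an edge step.

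The base 3′ of the TT was associated with a smaller difference. By CPD signal A after the TT was higher than G in 73 of 84 pairs, with a median fold of 1.21 (0.79 to 1.95). Only 12 pairs passed, below the 22.0% called with A higher over all such pairs of the libraries. With the spatially adjusted intensity 27 passed, at an adjusted p of 0.01 none did, and leaving out a replicate spot gave between 6 and 13. With the 6-4PP antibody A was higher in 53 and lower in 29 of 84 pairs, with a median fold of 1.13 (0.60 to 1.90). There 23 passed with A higher, against 29.2% in the libraries, and 11 with G higher. The direction went with the edge steps. Where the 3′ base was in no other dipyrimidine, A was higher in 41 of 44 pairs (median fold 1.35) and 20 passed with A higher and 0 with G higher. Where it was in an edge step, A was higher in 12 and lower in 26 of 40 pairs (median fold 0.91), and 3 passed with A higher and 11 with G higher. In the ratio of irradiated to unexposed intensity, A exceeded G in 55 of 84 pairs with each antibody. The median differences were 0.15 for CPD and 0.18 for 6-4PP on the log2 scale.

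In the isolated set, MITF_Ex_ebox_59_ATTA and MITF_Ex_ebox_59_ATTG differed by a fold of 1.03 on the irradiated CPD array (exact test, adjusted p = 0.844) and of 1.49 on the irradiated 6-4PP array (adjusted p = 0.000230). For MITF_Ex_ebox_59_GTTA against MITF_Ex_ebox_59_GTTG the folds were 1.10 (exact test, adjusted p = 0.514) and 1.05 (adjusted p = 0.696). On this backbone the 3′ base thus passed the test with the 6-4PP antibody after ATT and missed it after GTT; the difference between these was not tested. The largest 3′ difference on the irradiated CPD array was TBP_E60_TAAT at 6583 against TBP_E60_CAAT at 3370.5, a fold of 1.95 (exact test, adjusted p = 0.0431). For 6-4PP MITF_ebox_60_ATTA was at the ceiling and MITF_ebox_60_ATTG at 34479, a fold of at least 1.90 (exact test, adjusted p = 0.000230). The opposite extreme was MITF_Ex_sebox_60_GTTA at 21522 against MITF_Ex_sebox_60_GTTG at 35997, a fold of 0.60 (exact test, adjusted p = 7.78e-05). The G of that pair makes a TC with the next base on the other strand, and the A makes a TT there.

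With both flanks combined, the medians over 42 probes on the irradiated CPD array were 9227.75 for ATTA, 8227 for ATTG, 5854.5 for GTTA and 4987.75 for GTTG. By 6-4PP signal they were 35921, 29054.2, 10717.2 and 9636.25. The 4 flank contexts on the same backbone and strand form 42 sets. On the irradiated CPD array ATTA was brighter than GTTG in 41 sets by a median of 1.95-fold (0.917 to 3.33), and GTTG was the dimmest in 40. The unexposed CPD array showed the same order at a smaller size: ATTA was brighter in 41 sets by a median of 1.25-fold (0.953 to 2.03), and GTTG was the dimmest in 31. There 37 of 42 ATTA and 14 of 42 GTTG probes were above background. In the 6-4PP values both A-first probes were above both G-first probes in 41 of 42 sets. In the remaining set, on the listed strand of MITF_ebox_59, the ATTA, ATTG and GTTG probes all lay at the ceiling. The median fold of ATTA over GTTG was 2.81 (1 to 7.52). For the isolated TT on the listed strand, with 4 backbones, the 6-4PP UV medians were 17896.5 for ATTA, 12260.5 for ATTG, 8301.25 for GTTA and 6513.75 for GTTG. On the opposite strand, again with 4 backbones, they were 14873.8, 10151.2, 6164.25 and 5651.25. Each of the A-first ranges lay above each of the G-first ranges there: the lowest A-first probe was at 11713 and the highest G-first probe at 10783.5 on the listed strand, and at 9471.5 and 6653 on the opposite strand.

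The strand that carried the TT was associated with a difference on the irradiated CPD array. Over 84 pairs of a probe and its reverse-complement ending, the TT on the listed strand was brighter in 74, with a median fold of 1.56 (0.63 to 3.35). Of these pairs 55 passed with the listed strand higher and 7 with the opposite strand higher, together 62 of 84. Over all such pairs of the libraries 30.9% passed in either direction. The pairs on the 60-base backbones have 1 edge step on both probes. In these pairs the listed strand was higher in 50 of 52 with a median fold of 1.56. Of them, 38 passed with the listed strand higher and 0 with the opposite strand higher. The type of the edge step was not matched in all of them. It differs between the strands on MITF_Ex_ebox_60, MITF_Ex_sebox_60, TBP_60 and TBP_MUT_60. Where the listed-strand probe had 2 edge steps and its partner none, the listed strand was higher in 16 of 16 pairs (median fold 2.10) and all 16 passed. Where it had none and its partner had 2, the median fold was 0.91, with 1 passing with the listed strand higher and 7 with the opposite strand higher. The largest CPD UV pair was NP_MITF_ebox_60_GTTG at 8637 against NP_MITF_ebox_60_CAAC at 2576.5, a fold of 3.35 (exact test, adjusted p = 0.000218). The smallest was MITF_Ex_sebox_59_ATTG at 7581 against MITF_Ex_sebox_59_CAAT at 11946, a fold of 0.63 (exact test, adjusted p = 0.00624).

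A smaller strand difference stood on the unexposed CPD array, where the median fold over the 84 pairs was 1.13 and 31 pairs passed with the listed strand higher and 7 with the opposite strand higher. Over all such pairs of the libraries 19.7% passed in either direction on that array. As a ratio of irradiated to unexposed CPD intensity, the listed strand exceeded the opposite strand in 68 of 84 pairs, by a median of 0.52 on the log2 scale, against 0.64 for the irradiated array alone. In the 52 pairs with 1 edge step on both probes it did so in 44, by a median of 0.54. Where the listed-strand probe had no edge step and its partner 2, the median was 0.12, with 9 of 16 higher.

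On the irradiated 6-4PP array the strands lay close by median at equal numbers of edge steps, and the number of edge steps separated the pairs. Over 84 pairs the listed strand was higher in 49 and lower in 34, with a median fold of 1.09 (0.24 to 12.69). There 36 passed with the listed strand higher and 21 with the opposite strand higher, together 57 of 84, near the 69.9% of all such pairs of the libraries. In the 52 pairs with 1 edge step on both probes the median fold was 1.09, with 20 passing with the listed strand higher and 7 with the opposite strand higher. The type of that step was not matched in all of them. On MITF_Ex_sebox_60 the ATTA reading gave 58904 on the listed strand with a TT edge, and 17087 on the opposite strand with a CT edge. On TBP_60 it gave 31358.5 with a TT edge and 44987.5 with a TC edge. Strands also differed where the edge type was the same on both. There the ATTA reading gave 63515.5 (listed) and 23210.5 (opposite) on p53_E_mut_60. In the other direction, it gave 43524.5 and 54921 on p53_60. With 2 edge steps against none the listed strand was higher in 16 of 16 pairs (median fold 4.13). With none against 2 it was lower in 16 of 16 (median fold 0.43), and 14 passed. The widest pair was MITF_ebox_59_GTTG, at the ceiling in 10 of 10 spots, against MITF_ebox_59_CAAC at 5163.5, a fold of at least 12.7 (exact test, adjusted p = 3.6e-05). Both read GTTG on the TT strand, and the first has a CC and a TC across its edges.

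Probes of the same backbone and ending in 59 and in 60 bases gave a second view of the edge steps. A base inserted beside the block in the 60-base probe added 1 edge step in 32 of the TT pairs and removed 1 in the other 32. This comparison was added after the sequences had been read. MITF_Ex_ebox_59_ATTG, with no edge step, gave 11756 on the irradiated 6-4PP array. MITF_Ex_ebox_60_ATTG, with a TC across the edge, lay at the ceiling of 65535 in 8 of 9 unflagged spots, at least 5.57 times as bright (exact test, adjusted p = 0.000103). With the CPD antibody the same probes gave 8567 and 8632.5 (exact test, adjusted p = 0.754). MITF_Ex_ebox_60_GTTG gave 34101.5 on the irradiated 6-4PP array against 6372 for MITF_Ex_ebox_59_GTTG, a fold of 5.35 (exact test, adjusted p = 5.83e-05). Their CPD UV values were 6016 and 5195.5 (exact test, adjusted p = 0.719).

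Over the 32 pairs in which the 60-base probe had 1 edge step more, the 6-4PP UV fold had a median of 2.35 (0.86 to 6.24). The 60-base probe was brighter in 31, and 29 passed with it brighter and 0 with it dimmer. The CPD UV fold had a median of 1.01 (0.66 to 1.67), with 2 passing in each direction. Over the 32 pairs with 1 edge step less, the 6-4PP UV median was 0.53 and 23 passed with the 60-base probe dimmer. The CPD UV median was 0.75, with 13 passing in that direction. Over all pairs of this kind in the libraries 73.4% passed in either direction on the irradiated 6-4PP array. On the irradiated CPD array 24.1% did, with a median fold of 0.83. These shares are not split by direction or by the change in edge steps, so they are no like-for-like baseline for the counts above. The 23 of 32 that passed as dimmer on the irradiated 6-4PP array lay near the 73.4%. The largest drop on the irradiated CPD array was from TBP_E59_CAAT at 16092.5 to TBP_E60_CAAT at 3370.5 (exact test, adjusted p = 0.000231), with the loss of a TT across the edge.

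The type of the edge step went with the level. Among the 104 probes with 1 edge step, the 6-4PP UV medians were 35929.2 with a TC (36 probes), 22032.5 with a TT (16 probes), 10905.8 with a CC (36 probes) and 10599.2 with a CT (16 probes). The CPD UV medians were 7466.5 with a TC, 8832 with a TT, 4696.75 with a CC and 6372 with a CT. TC edges led with the 6-4PP antibody and TT edges with the CPD antibody. These groups also differ in the flank base of the central TT, which is part of the edge step. Each flank base still occurs with a pair of edge types, set by the next base of the backbone. With an A before the TT, a TC edge gave a 6-4PP UV median of 39384.2 (26848 to 65535, 24 probes) and a TT edge 24898.2 (19174.5 to 31358.5, 4 probes). The CPD UV medians of the same probes ran the other way, at 7440 and 12053. These TT-edge probes all have the TT on the listed strand, and the TC-edge probes lie on both strands. On the listed strand alone, CPD UV values ran from 7369.5 to 12700 with a TC edge and from 9922 to 14800.5 with a TT edge. With a G before the TT, a CC edge gave 10487.5 and a CT edge 9641 by 6-4PP signal. After the TT, an A gave a 6-4PP UV median of 22032.5 with a TT edge and 13635.2 with a CT edge, and a G gave 23386.2 with a TC edge and 13733.5 with a CC edge, over 12 probes each. No test was made of these groups, which lie on different backbones and are not all matched for strand. The 24 probes with a TC 5′ of the TT ranged from 26848 to 65535 on the irradiated 6-4PP array, and the 24 with a CC there from 8489.5 to 15426.5, with no overlap. All of the former carry an A and all of the latter a G before the TT.

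The central TT was set against a central TC, CT or CC with the same flanks, backbone and strand, in 168 pairs each. Among probes without an edge step, the CPD UV medians were 5980.75 (TT), 3448.25 (TC), 2662.75 (CT) and 2021.5 (CC), with 32 probes per centre. Only the TT median exceeded the background of that array, 3740.02. Names without a dipyrimidine had a median of 2341.75 there. At the median of these isolated sites, the CPD folds of TT are thus folds over signal below this pooled background. The backbones of the isolated sites hold no names without a dipyrimidine, so their own background was not measured. In the MITF and TBP libraries that hold such names, NP_MITF_ebox_60 apart, their medians ran from 1817.75 to 2370. The TC median lay above the highest such name in each of these libraries but MITF_Ex_sebox_60 (3562.5). The CT median did so only in TBP_60 (2607.5) and TBP_MUT_60 (2543.5), and the CC median in none. By 6-4PP signal the medians were 9919.5 (TT), 15342.5 (TC), 5373.25 (CT) and 6733 (CC), with a background of 6775.27. TT was thus the brightest of these centres with the CPD antibody, and TC with the 6-4PP antibody. For CPD the fold of TT over TC had a median of 1.58 (0.77 to 4.61), with TT higher in 157 of 168 pairs and 94 passing. The library pairs of this kind differ in that base alone, with the other varied bases free, so most are not TT against TC. Among them 32.7% passed with the T side higher. The spatially adjusted intensity raised the number passing from 94 to 143, and an adjusted p of 0.01 lowered it to 62. With the TT on the listed strand 74 of 84 passed and on the opposite strand 20 of 84, where the median fold was 1.35. That difference between strands was not tested. In the ratio of irradiated to unexposed CPD intensity, TT exceeded TC in 141 of 168 pairs. The median there was 0.48 on the log2 scale, against 0.66 for the irradiated array alone.

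For 6-4PP the fold of TT over TC had a median of 0.81 (0.37 to 1.64), with TT higher in 32 and lower in 125 of 168 pairs. There 10 passed with TT higher, against 36.6% with the T side higher in the library pairs, whose other bases were free. With TT lower 78 passed, against 17.8% with the T side lower. For the isolated sites TT was lower in 32 of 32 pairs (median fold 0.63) and 21 passed. After an A the deficit was larger: the median fold was 0.67 for ATTA against ATCA and 0.60 for ATTG against ATCG. After a G it was 0.89 for GTTA and 0.91 for GTTG. Many of the TC partners after an A lay at the ceiling, so these folds are upper bounds where the TT probe lay below it. Where both probes lay at the ceiling, as for MITF_ebox_59_ATTA and its ATCA partner, the fold is not measured. The widest pair below the ceiling was TBP_60_ATTG at 19846.5 against TBP_60_ATCG at 54066, a fold of 0.37 (exact test, adjusted p = 6.37e-05). For CPD the widest pair ran the other way, with TBP_E59_ATTA at 13009 against TBP_E59_ATCA at 2820.5, a fold of 4.61 (exact test, adjusted p = 0.000226).

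TT was brighter than CT with both antibodies. The median fold was 2.01 on the irradiated CPD array, with 166 of 168 higher and 134 passing. In the library pairs, whose other varied bases were again free, 34.2% passed with the T side higher. The median fold was 2.10 on the irradiated 6-4PP array, with 166 higher and 148 passing, against 44.6% of the library pairs. With the 6-4PP antibody the median fold was 3.39 for ATTA, 2.49 for ATTG, 1.70 for GTTA and 1.42 for GTTG. The widest CPD pair was TBP_E60_ATTG at 8613 against TBP_E60_ACTG at 1524, a fold of 5.65 (exact test, adjusted p = 0.000247). For 6-4PP MITF_ebox_60_ATTA at the ceiling was at least 6.86 times as bright as MITF_ebox_60_ACTA at 9553 (exact test, adjusted p = 5.11e-05).

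TT was also brighter than CC. For CPD it was higher in 168 of 168 pairs, with a median fold of 2.45 and 162 passing, near the 96.3% of all such pairs in the libraries. By 6-4PP signal it was higher in 164, with a median fold of 1.75 and 146 passing, against 70.8%. The widest CPD pair was TBP_MUT_E60_ATTA at 9806.5 against TBP_MUT_E60_ACCA at 1454.5 (exact test, adjusted p = 3.28e-05). The narrowest was p53_mut_60_CAAT at 4651.5 against p53_mut_60_CGGT at 4249.5 (exact test, adjusted p = 0.0908). In the 6-4PP values MITF_ebox_59_TAAC, an isolated GTTA, gave 5866.5 against 6804 for its CC partner (exact test, adjusted p = 0.278).

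The extremes of the 168 probes are among the values that gave these patterns and are no separate check of them. By CPD signal the brightest were TBP_59_ATTA at 17442 ± 2116 (SD, 10 spots), TBP_E59_CAAT at 16092.5 ± 3407 and TBP_MUT_59_ATTA at 15716 ± 3337. All have 2 edge steps and an A before the TT. The dimmest were NP_MITF_ebox_60_CAAC at 2576.5 ± 889.8, MITF_Ex_ebox_60_CAAC at 2579 ± 812.5 and MITF_sebox_60_CAAC at 2796.5 ± 1250. All read GTTG with the TT on the opposite strand. On the irradiated 6-4PP array the dimmest were MITF_sebox_59_TAAC at 4508 ± 3038, MITF_ebox_59_CAAC at 5163.5 ± 2265 and MITF_sebox_59_CAAC at 5441 ± 2729, all isolated TTs after a G. The 12 probes at the ceiling included MITF_Ex_ebox_60_ATTG and MITF_Ex_sebox_60_ATTG, the ATTA and ATTG probes of MITF_ebox_59 and MITF_sebox_59, and MITF_ebox_59_GTTG. The others were MITF_ebox_60_ATTA, both ATTA readings of MITF_sebox_60, TBP_E59_TAAT and p53_mut_60_ATTA. None of the 12 was an isolated TT.

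The 21 backbones overlapped in level on both irradiated arrays. Library medians over 8 TT probes ran from 5516.25 (p53_mut_60, range 3803 to 11572) to 9370 (TBP_E59, 3896.5 to 16092.5) on the irradiated CPD array. With the 6-4PP antibody they ran from 10527.2 (MITF_Ex_sebox_59, 5771 to 36984) to 31636.2 (MITF_ebox_59, 5163.5 to 65535). The MITF libraries had CPD UV medians of 7143 (MITF_Ex_ebox_59), 5887.5 (MITF_Ex_ebox_60), 6669.25 (MITF_Ex_sebox_59), 6444 (MITF_Ex_sebox_60), 6535.75 (MITF_ebox_59), 6077 (MITF_ebox_60), 7132 (MITF_sebox_59), 6006 (MITF_sebox_60) and 8034.5 (NP_MITF_ebox_60). Their 6-4PP UV medians in the same order were 10651, 20167, 10527.2, 19304.5, 31636.2, 23049.2, 28088.2, 23953.8 and 22498.8.

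The TBP libraries had CPD UV medians of 7257.25 (TBP_59), 6739.5 (TBP_60), 9370 (TBP_E59), 6323.25 (TBP_E60), 7099.75 (TBP_MUT_59), 5802 (TBP_MUT_60), 8083 (TBP_MUT_E59) and 5575.75 (TBP_MUT_E60). Their 6-4PP UV medians were 15013.8, 15617.5, 16493.8, 17081, 13513.8, 14735.8, 15196.2 and 16307, a narrow band. The p53 libraries had CPD UV medians of 7036.25 (p53_60), 7803.5 (p53_E60), 8147.75 (p53_E_mut_60) and 5516.25 (p53_mut_60), and 6-4PP UV medians of 19776, 14031.5, 22673.2 and 24203.2. The p53 libraries were dimmest on the unexposed 6-4PP array, with medians from 38 to 44.75, against 50.25 to 69.75 in the MITF and TBP libraries.

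Where the TT, its flanks and the next base on both sides were the same on several backbones, their levels were compared. Over 64 such blocks of 6 bases, with reading strand kept, the highest over the lowest backbone had a median ratio of 1.15 on the irradiated CPD array (at most 1.79) and of 1.16 on the irradiated 6-4PP array (up to 3.53). On the latter, 7 of the blocks had a value at the ceiling and 3 had all of them there, so their ratios are not measured. The median over the other 57 was also 1.16. Most of the 64 blocks were on 2 backbones only, a site and its own changed form, so these set the medians. Blocks on 4 or 5 backbones spread more, with ratios from 1.25 to 1.79 on the irradiated CPD array. On the irradiated 6-4PP array those without a value at the ceiling ran from 1.19 to 1.90. Against the names without a dipyrimidine of its own library, which the 60-base libraries hold, a TT probe gave a library median of 2.11 to 3.71 times their level on the irradiated CPD array. For 6-4PP it gave 2.16 to 5.13 times. Of the 104 TT probes of 60 bases, 98 and 102 were above the highest such name of their library on these arrays.

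Across the 168 probes the levels with both antibodies ran together, with a Spearman rho of 0.69 between the UV arrays, and of 0.84 over the 32 isolated TTs. These points share their backbones, and the arrays share the print design. The ratio of 6-4PP UV to CPD UV intensity had a median of 1.55 with no edge step, 2.72 with 1 and 3.17 with 2. The scales of the antibodies are not calibrated against each other, so only the change of this ratio between groups of probes can be read. Across the 168 probes, CPD UV and CPD non-UV intensity had a rho of 0.71, and 6-4PP UV and 6-4PP non-UV intensity of 0.17.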

How the data were processed

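The deposited files give the fluorescence intensity of each spot on a linear scale, per the file headers. The intensity column without flagged spots was used as deposited. What scanner, software or background correction was used is not stated. The deposited Cy3 values were the same at every spot, so no correction for the amount of DNA was possible. A deposited intensity adjusted for position on the array served as an alternative. A probe's value was the median over its 10 spots. Pairs of probes were compared on 1 array by an exact two-sided permutation test of mean log2 intensity over spots (smallest p with 10 spots against 10, 1.08e-05), or by 100000 random draws where an enumeration exceeded 200000, with Benjamini-Hochberg adjustment over all pairs of the kind and a threshold of 0.05. Spots are technical repeats, so these p-values measure only their spread. No p-value was computed between conditions. With 1 array a group, precision rests on the spots alone. The test was checked on simulated spots. Named were the 8 endings, all libraries, the 3 brightest and 3 dimmest probes per UV array and the widest and narrowest pairs; the isolated quartets and other examples were chosen after their values were seen. The members and lists were chosen with earlier results of these data known. Python 3.11.15, numpy 2.4.6, pandas 2.3.3 and scipy 1.17.1 were used.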

Additional observations from a re-analysis of the deposited data

Results flagged for a closer look

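The order of a central TT and a central TC turned between the antibodies. The median log2 difference of TT minus TC over 168 pairs was 0.66 on the irradiated CPD array and -0.30 on the irradiated 6-4PP array. The difference between the antibodies was not tested, since each was used on 1 irradiated array and at its own dilution. In 32 of 32 pairs without an edge step TT was lower on the irradiated 6-4PP array, and in 30 of 32 it was higher on the irradiated CPD array.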

How the results depend on the processing

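No result between irradiated and unexposed arrays could be checked on repeat arrays, and spots at the ceiling limit the 6-4PP values from above. No paired analysis was possible because each group is 1 array. Of 905 values under the alternatives, 846 stayed within a tolerance, 58 moved and 1 reversed. For a median this tolerance was the SD of that median recomputed from each of the 10 replicate spots alone, 0.02 to 0.16 on the log2 scale, and for a share or count it was 1.5 times. The reversed value is the 6-4PP UV minus non-UV difference, which is -8.17 by the array titles. The cause of the other changes was not tested. Under the spatially adjusted intensity the log2 values were 7.75 for the CPD UV minus non-UV difference, 1.35 for TT over CC with CPD, and with 6-4PP 0.17 for the strand, 0.99 for TT over CT and 0.77 for TT over CC. Of the CPD pairs, 32.1% passed for the 3′ base and 85.1% for TT over TC. With the mean of spots the log2 values were 7.60 for the CPD UV minus non-UV difference, 0.93 for TT over CT and 1.23 for TT over CC with CPD. With 6-4PP they were 1.26 for the 5′ base, 0.20 for the strand, 0.99 for TT over CT, 0.77 for TT over CC and 1.09 for an added edge step. Without values at the ceiling the 6-4PP log2 values were 8.09 for UV minus non-UV, 1.02 for TT over CT and 1.01 for an added edge step. The 59-base libraries alone gave log2 values of 0.82 (5′ base), 0.76 (TT over TC) and 1.35 (TT over CC) with CPD. With 6-4PP they gave 7.90 (UV minus non-UV), 1.21 (5′ base), 0.31 (strand) and -0.39 (TT over TC). The 60-base libraries alone gave 0.57 (5′ base) and 1.23 (TT over CC) with CPD and 8.38 (UV minus non-UV) with 6-4PP. Pairs whose flank base was in no other step, an alternative chosen after seeing the data, gave log2 values for the 5′ base of 0.54 with CPD and 0.97 with 6-4PP, and for the 3′ base of 0.44 with 6-4PP. For the 3′ base 6.82% of these pairs passed with CPD and 45.5% with 6-4PP. At an adjusted p of 0.01, in the exact permutation test, 0% of the CPD pairs passed for the 3′ base, 36.9% for TT over TC and 3.12% for an added edge step, and 16.7% of the 6-4PP pairs passed for the 3′ base. Without each replicate spot in turn the log2 value ranged from 0.11 to 0.18 for the 6-4PP strand difference, from 1.24 to 1.32 for TT over CC with CPD and from -0.50 to -0.42 for a removed edge step with CPD. The share of CPD pairs passing for the 3′ base ranged from 7.14% to 15.5%. The mean of spots and the linear scale change no spot test and gave no share.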

Other observations

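Of 64 blocks of 6 bases found on several backbones, 7 had a value at the ceiling on the irradiated 6-4PP array, so that their ratios between backbones are not measured. Of the other 57, 3 differed by more than 2-fold between backbones, and each was a listed-strand TT on p53_E60 and p53_E_mut_60. Their values were 17261.5 and 60993 for ATTG, 9103.5 and 28663 for GTTG, and 21929 and 63515.5 for ATTA. All 8 TT probes were brighter on p53_E_mut_60, by a median ratio of 1.54 (1.13 to 3.53), and the ratio on the irradiated CPD array had a median of 1.13 (0.85 to 1.48). On the other MITF, TBP and p53 pairs the median ratio of changed over unchanged site ran from 0.88 to 1.16 on the irradiated 6-4PP array. The sequences of the widest pair follow, with the central TT in capitals, and no test was made of this difference.
p53_E60_ATTG: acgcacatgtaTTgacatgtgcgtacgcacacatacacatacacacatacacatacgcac
p53_E_mut_60_ATTG: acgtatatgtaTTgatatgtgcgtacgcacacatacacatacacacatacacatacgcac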
